A study of Rattus norvegicus with 6 samples.

Results

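Mature microRNAs (miRNAs) of the miR-17, miR-18, miR-19 and miR-106 seed families were followed in PC12 cells, a rat adrenal pheochromocytoma line. The members are all rows of the deposited table whose names, with the rat prefix rno-, give miR-17, miR-18a or b, miR-19a or b, miR-20a or b, miR-93, or miR-106a or b, with every arm and copy. The rule found 17 of the 1289 rows, and it uses names only. Small RNA had been sequenced from 6 libraries, 3 in a group labelled EN and 3 in a group labelled EC. The labels spell out neither abbreviation, and the series title concerns Netrin-1, exosomes of endothelial cells and repair of peripheral nerve. All 6 libraries share the cell line, and the labels name no other treatment, time or genotype. No label states separate cultures for the replicates, and the p-values therefore cover the spread among these libraries alone, which may be technical.

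A miRNA guides the Argonaute protein to messenger RNAs through its seed, the stretch at bases 2 to 8, so arms with the same seed are held to share many targets. The miR-17-92 gene is transcribed as 1 precursor that Drosha and Dicer cut into separate miRNAs, and it is known as an oncogene that MYC and E2F factors switch on. Its paralogs are the miR-106b-25 cluster, in an intron of the DNA replication gene Mcm7, and the miR-106a-363 cluster. Known targets of the miR-17 seed include the cell cycle inhibitor p21 and the BH3 protein Bim. In neurons, miR-17-92 is known to favour proliferation of precursors and axon growth.

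The sequences of the guide arms show which members share a seed and how little separates the rest of each molecule. Mature sequences come from RefSeq (GRCr8), which matched all 17 members, and capitals mark bases 2 to 8.
rno-miR-17-5p: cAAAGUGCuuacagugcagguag
rno-miR-20a-5p: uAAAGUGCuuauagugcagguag
rno-miR-20b-5p: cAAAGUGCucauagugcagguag
rno-miR-93-5p: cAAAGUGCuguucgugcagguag
rno-miR-106b-5p: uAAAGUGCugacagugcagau
rno-miR-18a-5p: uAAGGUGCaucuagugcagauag
rno-miR-19a-3p: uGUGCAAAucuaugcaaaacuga
rno-miR-19b-3p: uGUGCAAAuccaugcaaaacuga
rno-miR-25-3p: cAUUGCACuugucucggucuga
The first 5 arms share 1 seed and form the miR-17 family, miR-18a-5p has a seed of its own, and both miR-19 arms share the third. MiR-25-3p is not a member and is shown because it is cut from the same precursor as miR-93-5p and miR-106b-5p with another seed.

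Outside the seed, miR-17-5p and miR-20a-5p differ at 2 of 23 bases, miR-17-5p and miR-106b-5p at 3 of 21, and miR-17-5p and miR-93-5p at 4 of 23, counted from the 5′ ends with base 1 included. MiR-19a-3p and miR-19b-3p differ at 1 of 23 bases. The sources used here do not say how reads matching several rows were assigned, so levels of arms this alike are uncertain to that extent.

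In the RefSeq annotation of GRCr8, a build other than the Rnor 6.0 named for the deposited data, miR-17-92 lies on chromosome 15 between 98587848 and 98588632 on the plus strand, with 6 miRNA genes. The miR-106b-25 cluster lies on chromosome 12 between 22156641 and 22157123 on the minus strand, with 3 genes, and all 3 fall within the Mcm7 gene. The miR-106a-363 cluster lies on chromosome X between 137342777 and 137343647 on the minus strand, with 5 genes. MiR-17-5p and miR-19b-3p are encoded by a gene on chromosome 15 and by a gene on chromosome X, so their rows cannot be assigned to 1 cluster. The hairpins of the genes that encode miR-17-5p show this, with both mature arms in capitals.
Mir17: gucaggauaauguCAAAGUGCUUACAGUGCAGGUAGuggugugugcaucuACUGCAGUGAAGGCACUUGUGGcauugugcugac
Mir106a: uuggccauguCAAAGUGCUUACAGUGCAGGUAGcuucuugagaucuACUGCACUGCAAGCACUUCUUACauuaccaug
The 5p arms are identical and the 3p arms are not, so miR-17-1-3p marks the chromosome 15 gene and miR-17-2-3p the chromosome X gene. MiR-17-1-3p had 558 counts over the EN libraries and 1352 over the EC libraries, against 0 and 3 counts of miR-17-2-3p.

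The EN libraries held 5371351, 4521694 and 4553436 miRNA counts and the EC libraries 6433167, 6153582 and 6554639. Levels below are CPM, each count relative to all miRNA counts of its library, adjusted by TMM factors, and tests are edgeR's quasi-likelihood test of EN over EC with Benjamini-Hochberg adjustment over the 628 rows that passed a filter on low counts, with a threshold of 0.05. The neuroendocrine markers summed to between 6329 and 6535 CPM in EN and between 5678 and 6390 CPM in EC over 17 rows. MiR-129-5p held most of this sum, at 3798 to 4388 CPM in EN and 3821 to 4390 CPM in EC. MiR-7a-5p came next, at 1488, 1306 and 1235 CPM in EN, against 973, 1058 and 1134 CPM in EC. Its log2 fold change of 0.35 had an adjusted p of 0.141 by edgeR. Some of the rows were scarce, with miR-375-3p at most 3.19 CPM, miR-127-3p at most 1.29 CPM and miR-7b at most 0.92 CPM in any library. MiR-137-3p had 2 counts in 1 EN library and 0 in the other libraries. Of 13 tested, 0 passed the threshold, where 3.98 percent of all tested rows did. The groups did not overlap in 2 of these rows higher and 2 lower in EN. Of all tested rows, 15 percent were higher and 14.6 percent lower without overlap. The endothelial miR-126 rows summed to between 1086 and 1228 CPM in EN and between 1064 and 1144 CPM in EC, with miR-126a-5p lower and 1 other tested row not past the threshold. The blood rows, of which only miR-451-5p was tested and was higher, summed to between 21.03 and 33.11 CPM in EN and between 8.96 and 12.5 CPM in EC. Liver rows summed to between 8.69 and 14.4 CPM in EN and between 5.95 and 9.74 CPM in EC. Muscle rows summed to between 1.75 and 2.40 CPM in EN and between 1.76 and 30.6 CPM in EC. The part of these markers in the results was not tested.

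Of the 17 members, 13 passed the filter, and of these 1 was lower in EN, 0 were higher and 12 did not pass the threshold, where 3.98 percent of all tested rows passed in either direction, 1.91 percent lower and 2.07 percent higher. The 1 was miR-106b-5p, and no member with a positive fold change had an unadjusted p under 0.05 by edgeR or passed by DESeq2. The groups did not overlap in 7 of the 13, with EN higher in 3 and lower in 4, where this held for 29.6 percent of all tested rows, 15 percent higher and 14.6 percent lower. Among the 380 tested rows of known miRNAs, it held for 48 higher and 76 lower. These counts are in CPM. In the RPM values described below, the 3 higher members, miR-19b-3p, miR-93-3p and miR-19a-3p, overlapped between the groups. The 4 lower members did not overlap there either, on a scale that lowers rows in EN in general. The median log2 fold change was -0.12 over the 13, -0.072 over the 380 tested rows of known miRNAs and 0.02 over all tested rows. The 4 members below the filter, miR-20a-3p, miR-19b-1-5p, miR-17-2-3p and miR-20b-3p, had at most 8 counts in any library. The filter can pass a row on the group where it is high, and miR-19a-5p, with 21, 7 and 7 counts in EN and 16, 24 and 27 in EC, stood close to it.

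**Figure D1:**
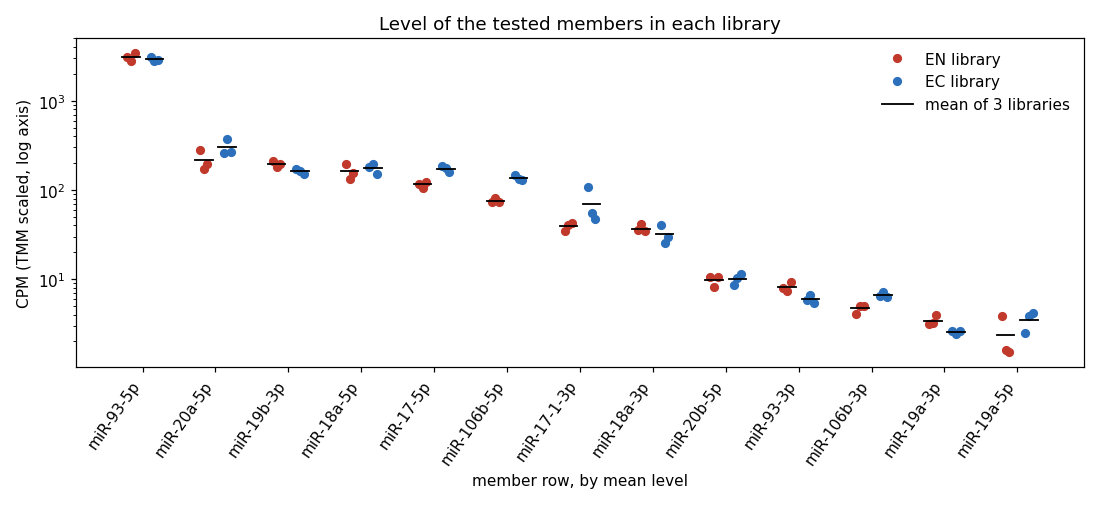
Level of the 13 tested members in each library, in TMM-scaled CPM on a log axis, with EN libraries in red, EC libraries in blue and black bars for the mean of 3 libraries. MiR-93-5p averages 3115 CPM in EN and 2929 CPM in EC, the highest other point is miR-20a-5p at 377 CPM, and the red points of miR-106b-5p and miR-17-5p lie below the blue ones.

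In the miR-106b-25 cluster, miR-106b-5p fell in EN, while miR-93-5p, far more abundant, did not pass the test. MiR-106b-5p, a guide arm of the miR-17 seed family, stood at 73.6, 80.2 and 72.9 CPM in EN, against 147.6, 131.2 and 129.01 CPM in EC. Every EN library lay below every EC library, and the EN mean was 55.6 percent of the EC mean. The means were 75.6 ± 4.03 CPM in EN and 135.9 ± 10.2 CPM in EC (SD, n = 3 each). The log2 fold change was -0.85 (SE 0.14) with an adjusted p of 0.0228 by edgeR's quasi-likelihood test, and the row ranked 11 of 628 by p. The RPM values the authors deposited divide by a larger library total. In RPM, miR-106b-5p stood at 19.9, 19.4 and 18.6 in EN, against 48.5, 43.0 and 39.8 in EC. With that total the median log2 fold change of all rows was -0.30, so the gap in RPM is not a separate result. In such bulk libraries, fewer cells with a miRNA and less of it per cell cannot be told apart.

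The call of miR-106b-5p was lost without any 1 of 4 libraries. It passed without EN replicate 1 or EC replicate 2. It did not pass without EN replicate 2 (adjusted p = 0.0922), EN replicate 3 (0.130), EC replicate 1 (0.0758) or EC replicate 3 (0.0834), by the same edgeR test. The log2 fold change stayed between -0.87 and -0.78 in these 6 fits, each of which compares 2 libraries with 3.

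The passenger arm miR-106b-3p was scarce, at 4.07, 5.03 and 5.04 CPM in EN, against 6.48, 7.18 and 6.26 CPM in EC. The groups did not overlap, yet with 67 counts over EN and 128 over EC the row did not pass, at a log2 fold change of -0.50 (SE 0.23, adjusted p = 0.253 by edgeR).

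MiR-93-5p has the same seed as miR-106b-5p and lies beside it on the same precursor. It stood at 3097, 2794 and 3452 CPM in EN, against 3132, 2795 and 2860 CPM in EC. The groups overlapped, and the log2 fold change was 0.09 (SE 0.11, adjusted p = 0.695 by edgeR). With library totals implied by RPM it turned to -0.24 without passing. Its passenger arm miR-93-3p, at 7.95, 7.31 and 9.20 CPM in EN and 5.87, 6.70 and 5.34 CPM in EC, had a log2 fold change of 0.45 (SE 0.22, adjusted p = 0.287 by edgeR). MiR-93-5p was the most abundant member, at 54 in the order of mean level of all 1289 rows, and miR-106b-5p stood at 189.

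The third miRNA of the cluster, miR-25, has the seed of the miR-92 family and is not a member. MiR-25-3p stood at 357, 389 and 438 CPM in EN, against 305, 298 and 283 CPM in EC, a log2 fold change of 0.42 (SE 0.13, adjusted p = 0.101 by edgeR). Its EN libraries lay above its EC libraries on this scale, but in RPM they overlapped, at 96.6, 94.2 and 111.9 in EN against 100.3, 97.7 and 87.5 in EC, with a log2 fold change of 0.08. The share of the cluster's counts held by both arms of miR-106b was 2.22 ± 0.31 percent in EN and 4.15 ± 0.10 percent in EC (SD, n = 3 each). The share of miR-93 was 85.5 ± 1.29 percent in EN and 85.4 ± 0.26 percent in EC, and that of miR-25 was 12.3 ± 1.03 percent in EN and 10.5 ± 0.31 percent in EC.

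**Figure D2:**
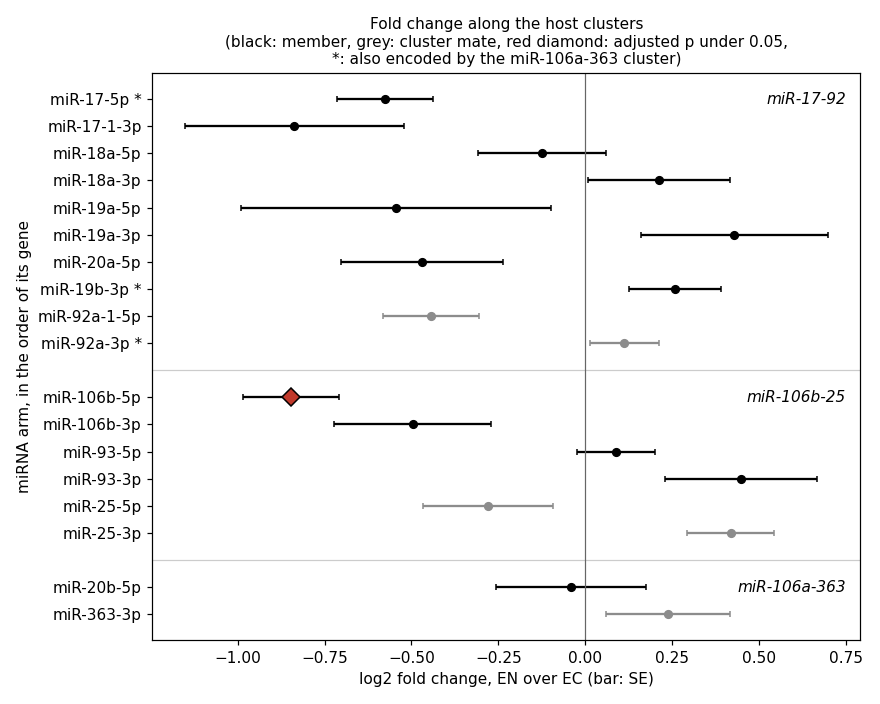
Log2 fold change of EN over EC with its SE for each tested arm, in the order of the genes along each host cluster, members in black and cluster mates in grey. The 1 arm with an adjusted p under 0.05, miR-106b-5p at -0.85, is a red diamond, and arms of both signs stand in miR-17-92 and in miR-106b-25.

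Among the members that miR-17-92 encodes, alone or together with the chromosome X cluster, the arms of miR-17 lay below EC in every EN library without passing, miR-18a-5p overlapped its EC levels, and miR-19b-3p stood above them in CPM. MiR-17-5p, the founding member of the family, stood at 117.3, 106.5 and 123.5 CPM in EN, against 185.1, 174.5 and 158.3 CPM in EC. The groups did not overlap, and the means were 115.8 ± 8.61 CPM in EN and 172.6 ± 13.5 CPM in EC (SD, n = 3 each). The log2 fold change of -0.58 (SE 0.14) had an adjusted p of 0.0618 by edgeR, short of the threshold. It passed in 3 of 15 alternative settings. These were a minimum mean of 10 CPM (adjusted p = 0.0466 by edgeR), DESeq2 (adjusted p = 0.00510) and library totals implied by RPM (-0.91, adjusted p = 0.0138 by edgeR). Among the others, it did not pass by limma (adjusted p = 0.0579) or by edgeR without a filter (adjusted p = 0.0624). In none of the 6 edgeR fits without 1 library did it pass, with adjusted p between 0.0993 and 0.185.

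MiR-17-1-3p, the opposite arm of the same chromosome 15 hairpin, stood at 34.4, 40.2 and 42.9 CPM in EN, against 107.5, 54.9 and 47.6 CPM in EC. The groups did not overlap, but EC replicate 1 lay far above the other EC libraries. The log2 fold change was -0.84 (SE 0.32, adjusted p = 0.170 by edgeR), and it was -0.38 without EC replicate 1.

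MiR-20a-5p, a further guide arm with the miR-17 seed, stood at 279, 173 and 198 CPM in EN, against 258, 377 and 264 CPM in EC. The groups overlapped through EN replicate 1, and the log2 fold change of -0.47 (SE 0.23) had an adjusted p of 0.293 by edgeR. MiR-20b-5p of the miR-106a-363 cluster, scarce at 10.5, 8.23 and 10.5 CPM in EN and 8.49, 10.4 and 11.3 CPM in EC, had a log2 fold change of -0.04 (SE 0.22, adjusted p = 0.926 by edgeR).

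MiR-18a-5p, the 1 member with the miR-18 seed, stood at 194.1, 133.2 and 156.8 CPM in EN, against 181.4, 194.3 and 151.8 CPM in EC. Its groups overlapped, with a log2 fold change of -0.12 (SE 0.18) and an adjusted p of 0.731 by edgeR. Its opposite arm miR-18a-3p averaged 37.0 ± 3.63 CPM in EN and 31.9 ± 7.84 CPM in EC (SD, n = 3 each), a log2 fold change of 0.21 (SE 0.20, adjusted p = 0.620 by edgeR).

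MiR-19b-3p, the abundant arm with the miR-19 seed, stood at 211.8, 180.3 and 195.8 CPM in EN, against 173.2, 165.1 and 153.0 CPM in EC. Every EN library lay above every EC library on this scale, yet the row did not pass, at a log2 fold change of 0.26 (SE 0.13, adjusted p = 0.299 by edgeR), and the value turned to -0.069 with library totals implied by RPM. MiR-19a-3p, from a gene of miR-17-92, had 49 counts over the EN libraries and 49 over the EC libraries, which is 3.43 ± 0.45 CPM in EN and 2.54 ± 0.13 CPM in EC (SD, n = 3 each). MiR-19a-5p averaged 2.34 ± 1.34 CPM in EN and 3.47 ± 0.88 CPM in EC. Neither passed edgeR's test.

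The cluster mates of miR-17-92 outside the rule were miR-92a-3p, which the chromosome X cluster encodes too, and miR-92a-1-5p. MiR-92a-3p averaged 3264 ± 66.1 CPM in EN and 3018 ± 262 CPM in EC (SD, n = 3 each), with a log2 fold change of 0.11 (SE 0.10). MiR-92a-1-5p averaged 91.9 ± 7.93 CPM in EN and 124.9 ± 4.85 CPM in EC, with a log2 fold change of -0.44 (SE 0.14). Neither passed, with adjusted p of 0.581 and 0.107 by edgeR, but miR-92a-1-5p passed with DESeq2 (adjusted p = 0.0443) and with library totals implied by RPM (-0.77, adjusted p = 0.0224).

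Summed over the family, the miR-17 seed differed by less than the spread between libraries in CPM, and 1 arm held most of it. The 5 arms of the miR-17 family summed to 3577, 3163 and 3857 CPM in EN, against 3732, 3489 and 3423 CPM in EC. The log2 ratio was -0.01 (SE 0.09), given without a test since the members were chosen, and it was -0.33 with library totals implied by RPM. MiR-93-5p made up 88.1 ± 1.48 percent of that sum in EN and 82.5 ± 2.10 percent in EC (SD, n = 3 each).

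Without miR-93-5p, the other 4 arms summed to 480, 368 and 405 CPM in EN, against 600, 693 and 563 CPM in EC, so that all EN libraries lay below all EC libraries. This sum leaves out the 1 family arm with a positive fold change. MiR-20a-5p, whose own groups overlapped, held the largest part of it. Of all tested rows, 14.6 percent were lower in EN without overlap. MiR-106b-5p held 2.06, 2.54 and 1.89 percent of the family's counts in EN, against 3.96, 3.76 and 3.77 percent in EC. MiR-17-5p held 3.28, 3.37 and 3.20 percent in EN, against 4.96, 5.001 and 4.63 percent in EC. These shares do not depend on how libraries are scaled, and both arms had lower shares in each EN library than in any EC library. Since miR-93-5p held most of the family, the shares nearly restate the ratios to miR-93-5p given below. Among all pairs of tested rows, 26.5 percent of such ratios separated the groups.

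**Figure D3:**
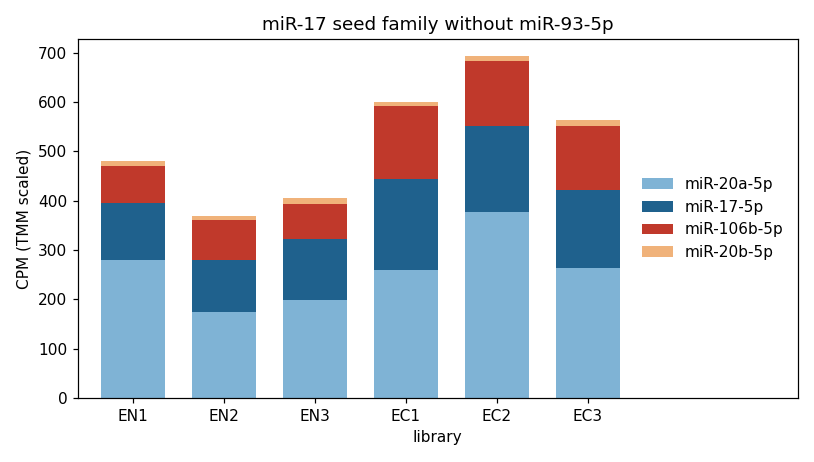
Summed level of the miR-17 seed family without miR-93-5p in each library, in TMM-scaled CPM from 0, with 1 colour per arm. The EN bars reach 368 to 480 CPM and the EC bars 563 to 693 CPM, and miR-106b-5p and miR-17-5p take thinner parts of the EN bars.

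The miR-18 family sum is miR-18a-5p itself. The miR-19 family summed to 215.0, 183.5 and 199.7 CPM in EN, against 175.9, 167.5 and 155.6 CPM in EC, a log2 ratio of 0.26 (SE 0.08) that turned to -0.066 with library totals implied by RPM. MiR-19b-3p made up 98.3 ± 0.26 percent of it in EN and 98.5 ± 0.12 percent in EC (SD, n = 3 each).

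By host cluster, the 9 rows that only miR-17-92 encodes summed to 645, 477 and 537 CPM in EN, against 725, 784 and 622 CPM in EC. The groups overlapped, and the log2 ratio was -0.36 (SE 0.16), or -0.69 with library totals implied by RPM. This sum leaves out the 3 arms that miR-106a-363 encodes too, which together were far more abundant and are given below. It is therefore not the level of the whole miR-17-92 cluster. The 6 rows of miR-106b-25 summed to 3592, 3335 and 4024 CPM in EN and 3663, 3290 and 3360 CPM in EC, a log2 ratio of 0.09 (SE 0.09) that turned to -0.24 with library totals implied by RPM. The 4 rows that only miR-106a-363 encodes summed to 23.7, 21.5 and 21.9 CPM in EN and 19.3, 21.4 and 22.1 CPM in EC, a log2 ratio of 0.09 (SE 0.07) that likewise turned to -0.23. Of this sum, miR-363-3p, a cluster mate outside the rule, averaged 12.6 ± 1.04 CPM in EN and 10.7 ± 0.16 CPM in EC. Its log2 fold change was 0.24 (SE 0.18, adjusted p = 0.510 by edgeR). The 3 arms that miR-17-92 and miR-106a-363 both encode, miR-17-5p, miR-19b-3p and miR-92a-3p, together averaged 3575 ± 50.3 CPM in EN and 3355 ± 238 CPM in EC (SD, n = 3 each), a log2 ratio of 0.09 (SE 0.06) that became -0.24 on the RPM scale. Together the 17 members made up 0.396 ± 0.045 percent of miRNA counts in EN and 0.404 ± 0.023 percent in EC (SD, n = 3 each). Of the larger library total implied by RPM they made up 0.110, 0.0865 and 0.110 percent in EN, against 0.140, 0.130 and 0.118 percent in EC, with no overlap. That total lowers rows in EN in general, with a median log2 fold change of -0.30 over all rows.

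Ratios of 2 arms within a library do not depend on scaling, and 5 of 6 such ratios separated the groups, where 26.5 percent of all pairs of tested rows did. The 6 pairs were chosen around miR-106b-5p and miR-17-5p, whose own levels did not overlap, and each pair holds 1 of these arms. The 6 ratios are therefore not separate results, and the share over all pairs is not a like baseline for them. The log2 ratio of miR-106b-5p to miR-93-5p was -5.39, -5.12 and -5.56 in EN, against -4.41, -4.41 and -4.47 in EC. The difference of EN minus EC was -0.93 (SE 0.13), in the same direction in all 3 EN libraries. The two-sided exact permutation p was 0.1, the smallest that 3 against 3 libraries allow, and 0.12 after Benjamini-Hochberg adjustment over the 6 ratios.

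The ratio of miR-106b-5p to miR-25-3p, likewise from 1 precursor, averaged -2.38 ± 0.18 in EN and -1.12 ± 0.07 in EC on the log2 scale (SD, n = 3 each), a difference of -1.26 (SE 0.11). That of miR-17-5p to miR-93-5p, arms of 1 seed from different clusters, averaged -4.74 ± 0.05 in EN and -4.08 ± 0.09 in EC, a difference of -0.66 (SE 0.06). That of miR-17-5p to miR-92a-3p differed by -0.69 (SE 0.15), and that of miR-19b-3p to miR-17-5p by 0.83 (SE 0.06), with 0.76 ± 0.09 in EN and -0.08 ± 0.02 in EC. These 4 ratios had the same exact permutation p of 0.1 and adjusted p of 0.12.

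The ratio of miR-17-5p to miR-20a-5p, arms of 1 seed, did not separate the groups. It was -1.25, -0.70 and -0.68 in EN, against -0.48, -1.11 and -0.74 in EC, a difference of -0.10 (SE 0.26, two-sided exact permutation p = 0.7).

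**Figure D4:**
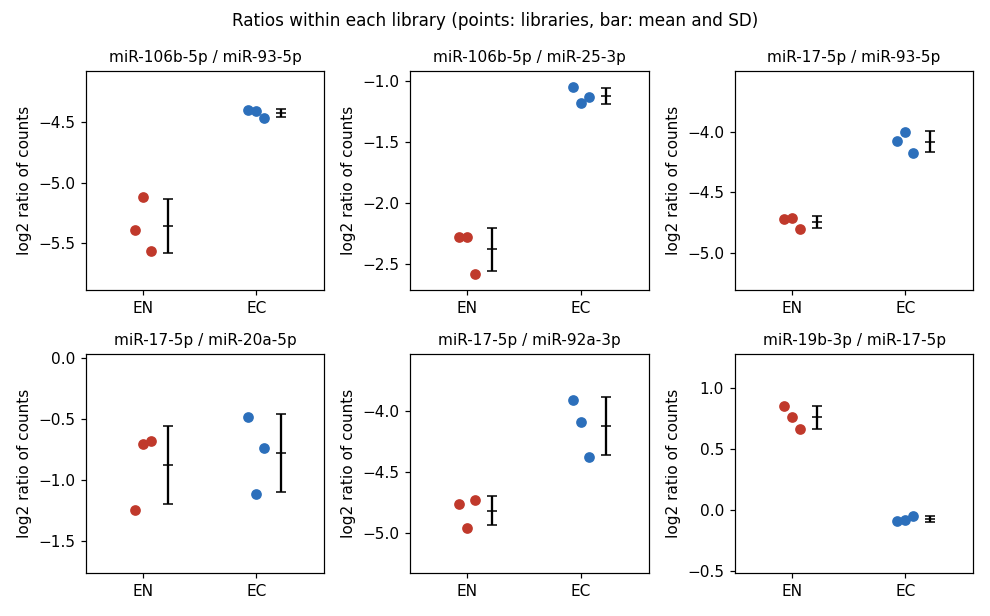
Log2 ratio of the counts of 2 arms within each library, for 6 pairs, with EN libraries in red on the left, EC libraries in blue on the right, and bars for mean and SD. In 5 panels the groups do not overlap, and in the panel of miR-17-5p over miR-20a-5p they do.

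Arm use was compared as the log2 ratio of 5p to 3p counts, by limma with Benjamini-Hochberg adjustment over 115 pairs in which each arm averaged at least 20 counts. None of the 4 member pairs passed, where 4.35 percent of all pairs did, and 0 of the 4 had an unadjusted p under 0.05 by limma. For miR-106b the log2 ratio was 3.95 ± 0.16 in EN and 4.32 ± 0.16 in EC (SD, n = 3 each), a difference of -0.37 (SE 0.17, adjusted p = 0.266 by limma). For miR-93 it was 8.54 ± 0.03 in EN and 8.91 ± 0.20 in EC, a difference of -0.36 (SE 0.17, adjusted p = 0.266 by limma). The pairs miR-17-5p with miR-17-1-3p and miR-18a differed by 0.17 (SE 0.29) and -0.37 (SE 0.29).

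Among other miRNAs of this pathway, rows that MYC is known to repress, such as the let-7, miR-15, miR-26, miR-29, miR-30 and miR-34 families, held 58 rows. Of 56 tested, 1 was lower, let-7i-3p, and 55 did not pass, where 1.91 percent of all tested rows were lower. The list takes in both arms of each miRNA. The opposite arm let-7i-5p had a log2 fold change of -0.15 (adjusted p = 0.269 by edgeR). The log2 ratio of the let-7i arms, 5p to 3p, differed by 2.22 (SE 0.35, adjusted p = 0.0225 by limma). The groups did not overlap in 17 rows lower and 2 rows higher in EN, where this held for 14.6 percent lower and 15 percent higher of all tested rows. Among the 380 tested rows of known miRNAs, 76 were lower and 48 higher without overlap. The median log2 fold change was -0.22, beside 0.02 over all tested rows and -0.072 over the tested rows of known miRNAs. Other miRNAs that carry the core AAGUGC in their first 8 bases, known for their role in embryonic stem cells, were near 0. They were miR-291b, with 3, 1 and 2 counts in EN and 7, 0 and 2 in EC, and miR-295-3p and miR-292-3p, each with at most 1 count in a library.

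Known rows of 100 CPM or more were ranked by how closely their centred log2 levels followed a member over the 6 libraries. Of 160 such rows, the nearest to miR-17-5p was its cluster mate miR-92a-1-5p, with a mean absolute difference of 0.067 on the log2 scale, where the median of all was 0.312. The next were miR-28-5p at 0.087 and miR-16-5p at 0.091. Nearest to miR-106b-5p were miR-24-2-5p at 0.106, miR-484 at 0.118 and miR-28-5p at 0.120, where the median was 0.402. MiR-24-2-5p and miR-28-5p were themselves lower in EN, with log2 fold changes of -0.88 and -0.60 and adjusted p of 0.0228 each by edgeR. Likeness over the 6 libraries includes this difference between the groups. Nearest to miR-93-5p were miR-34a-5p at 0.050, miR-126a-3p at 0.051 and miR-138-5p at 0.054, where the median was 0.208.

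The divisor of the libraries bears on how many members passed. The total that the deposited RPM values imply exceeds the miRNA counts, which made up 26.87, 24.99 and 25.49 percent of it in EN, against 32.6, 32.2 and 30.9 percent in EC. With that total the median log2 fold change of all rows was -0.30 and 14.2 percent of rows were lower. On that scale 4 of the 13 tested members were lower, miR-106b-5p, miR-17-5p, miR-17-1-3p and miR-106b-3p, with 0 higher. By DESeq2, where 9.23 percent of rows with an adjusted p were lower, the members past the threshold were miR-106b-5p, miR-17-5p and miR-17-1-3p, all lower.

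**Figure D5:**
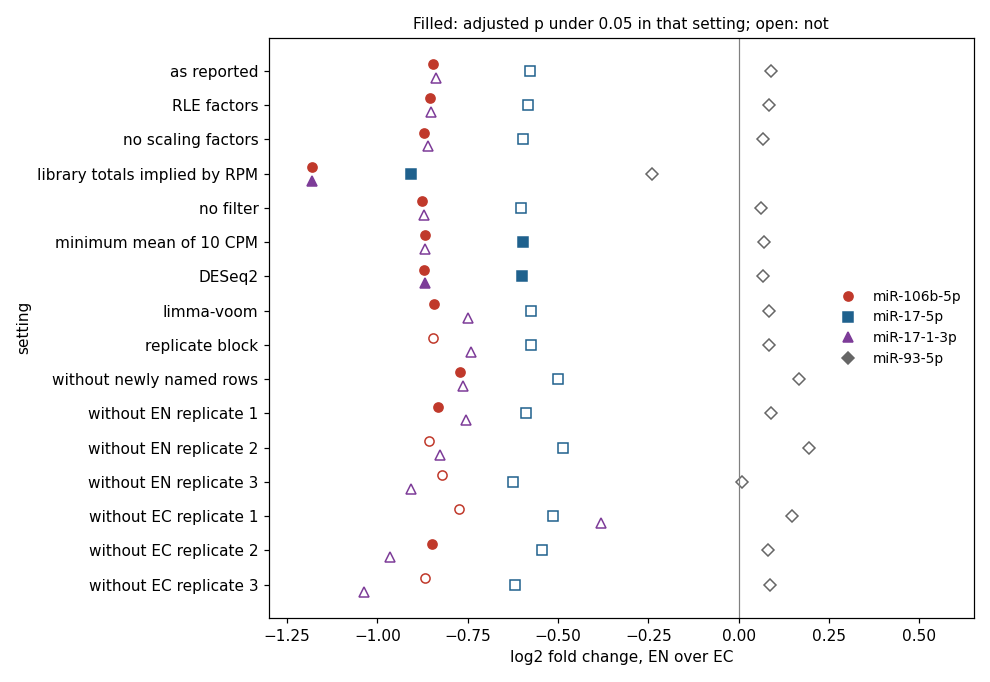
Log2 fold change of EN over EC of 4 members as reported and under 15 alternatives, with filled symbols for an adjusted p under 0.05. MiR-106b-5p, miR-17-5p and miR-17-1-3p are negative in every setting shown and miR-93-5p is positive in all but library totals implied by RPM, where it is -0.24.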

How the data were processed

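The authors deposited a table of read counts per mature miRNA for each library, and beside each count an RPM value, the count scaled to a library total. HISAT2 2.0.5 and the build Rnor 6.0 are listed, with no role, per the submitters' processing notes; the sources used here do not give the counter, miRNA annotation, strand setting or treatment of multiple matches. Trizol RNA and a TruSeq kit were used, per the labels' protocols. The authors' group means were not used.

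Counts were fitted with edgeR 4.0.16 in R 4.3.3 (filterByExpr, TMM, robust quasi-likelihood, EN over EC, no block), with DESeq2 1.42.0 and limma 3.58.1 as alternatives. SE is the size of a log2 fold change over the root of its F statistic. Ratios and arm use took counts plus 1. Likeness took log2(CPM + 1). Sums and shares have no test. The edgeR and limma fits were also run on simulated data, for edgeR with means and dispersions taken from these data.

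The members, lists and tests were chosen with earlier results of these data known. Every member is named. Others named are cluster mates, listed rows, and the 3 nearest known rows of 100 CPM or more for each of miR-17-5p, miR-93-5p and miR-106b-5p. Tables and figures were made in Python 3.11.15 with matplotlib 3.10.9 and pandas 2.3.3.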

Additional observations from a re-analysis of the deposited data

How the results depend on the processing

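The 1 member and 25 rows past edgeR's threshold were 4 and 101 with library totals implied by RPM, 3 and 83 with DESeq2, 2 and 37 with a minimum mean of 10 CPM, and 1 and 44 without a filter. Without 1 library, members past it numbered 0 to 1 and all rows 2 to 39. With the replicate block the counts were 0 and 2, and miR-106b-5p had a log2 fold change of -0.85 with adjusted p = 0.113. The numbers were not taken as pairs, since deviations of same-numbered libraries correlated at -0.052 to 0.076 and those of different-numbered ones at -0.165 to 0.140. With totals implied by RPM, of which miRNA counts were a smaller share in each EN library than in any EC library, the log2 ratios of the sums were -0.33 (miR-17 family), -0.45 (miR-18), -0.066 (miR-19), -0.69 (miR-17-92), -0.24 (miR-106b-25) and -0.23 (miR-106a-363), and the log2 fold changes of miR-93-5p, miR-19b-3p, miR-18a-3p, miR-92a-3p and miR-363-3p were -0.24, -0.069, -0.12, -0.22 and -0.092. MiR-20b-5p was 0.038 without newly named rows and -0.14 to 0.10 without 1 library, miR-18a-5p -0.28 to 0.033, and the ratio of miR-17-5p to miR-20a-5p -0.27 to 0.088. Beyond the changed divisor and fewer libraries, the cause was not tested. Depth limits miR-19a and the 4 members below the filter, with at most 27 counts in a library.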
